A study of Rattus norvegicus with 8 samples.

Results

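The genes described here are 10 core genes of the circadian clock: the period genes Per1, Per2 and Per3, the cryptochrome Cry1, the activators Arntl (also called Bmal1), Clock and Npas2, the nuclear receptors Nr1d1 and Nr1d2 (REV-ERB alpha and beta), and the clock output gene Dbp. They were chosen by name: every non-control probe of the array whose gene name equalled 1 of these 10 symbols was taken, which gave 12 probes for the 10 genes, out of 35535 genes on the array. Of these probes, 10 passed the filter on dim signals, and 9 genes were tested among 24161; Clock did not pass. The rule used no measured value, though the genes were chosen with earlier results of these data known.

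The cell-autonomous clock of mammals is a feedback loop. The protein of Arntl pairs with that of Clock or Npas2 and switches on Per and Cry genes, Nr1d1, Nr1d2 and Dbp, and PER and CRY proteins then repress the pair. REV-ERB proteins in turn repress Arntl, so that in peripheral organs such as the lung the transcripts of Arntl and Npas2 run in antiphase to those of Nr1d1, Nr1d2, Per3 and Dbp. Per1 is also induced acutely by glucocorticoids and other signals.

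Lung RNA of rats was hybridized to 8 two-colour oligonucleotide arrays. For 7 days rats were given either normal saline or cobalt (12.5 mg/kg body weight), and hypobaric hypoxia at a simulated 30000 ft followed for 6, 12, 24 or 48 h. Each array pairs the RNA of such a group with 0 h RNA of the same pretreatment, so the saline and the cobalt groups at 6, 12, 24 and 48 h hold 1 array each, and the 4 arrays of a pretreatment carry the same 0 h control by its label. The saline arrays carry hypoxia RNA in Cy5, and the cobalt arrays, on another slide with another scan, carry it in Cy3, so pretreatment, dye orientation, slide and scan cannot be told apart in any difference between the pretreatments. Within a pretreatment the hypoxia RNA is always in the same dye, so a dye bias of a probe does not cancel in the saline or the cobalt mean. All animals were kept at 24 °C. The labels give neither strain, sex or age, nor how many animals gave each RNA, nor the time of day at which lungs were taken, and for genes that cycle over the day the duration of hypoxia and the time of day cannot be told apart. As tissue RNA, a ratio cannot tell a change in RNA per cell from a change in the cells present.

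The share of spots well above background was 57.7% to 72.7% in hypoxia channels and 62.8% to 69.7% in 0 h channels. All 9 lung markers looked up (surfactant, club, ciliated, alveolar type I and endothelial genes) were above background in all 16 channels. Their ratios were not all steady. Ager ran from -2.20 to -0.07, Aqp5 from -2.16 to -0.20 and Foxj1 from -0.50 to 1.99, against -0.15 to 0.24 for Pecam1. The part of these shifts in the clock gene ratios was not tested. Of 17 markers of other cells and tissues on the array, 10 were above background in all channels. The oesophageal gene Krt4 was so in none, while Krt13, also oesophageal, was so in 7 hypoxia and 7 0 h channels. Ratios of cardiac muscle genes reached 3.73 for Myh6, 3.93 for Myl7 and 3.26 for Tnnt2 on the array where each was highest; their part in the clock gene ratios was not tested. Of 7 hypoxia-induced genes looked up, 6 were higher in the average over all arrays, in which 31.9% of all genes were called, and 3 in the cobalt mean. Among the 6 were Eno2, a glycolytic enzyme, higher by 1.24 ± 0.10 (SE, log2) and Bnip3, a mitophagy receptor, by 1.37 ± 0.12.

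The sequences below show what was measured for Nr1d1, Nr1d2, Dbp and Per3, whose ratios were all below 0 at saline 12 h and at cobalt 6 h. The array probes are 60 bases long; the deposited files give them, 5′ to 3′ and in lower case here, as:
Nr1d1: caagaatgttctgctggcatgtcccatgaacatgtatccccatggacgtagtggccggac
Nr1d2: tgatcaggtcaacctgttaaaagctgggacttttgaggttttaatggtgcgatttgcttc
Dbp: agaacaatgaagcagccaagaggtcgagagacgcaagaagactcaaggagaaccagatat
Per3, brighter probe: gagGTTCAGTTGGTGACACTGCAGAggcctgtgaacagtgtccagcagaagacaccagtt
Per3, dimmer probe: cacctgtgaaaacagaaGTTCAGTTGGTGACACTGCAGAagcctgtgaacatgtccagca
The capitals in the Per3 probes mark the longest stretch that both hold, 22 bases, so these probes are not independent measures of Per3. The remaining Per3 probe was not well above background in any of the 16 channels.

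Of the 10 genes, 9 had an entry in the RefSeq promoter table of the GRCr8 build, with 11 start sites in all. The 250 bases before each start were searched on both strands for 3 motifs: the E-box CACGTG, which the Arntl dimers bind, the D-box core TTANGTAA of Dbp and its relatives, and TNGGTCA, the core of the element shared by REV-ERB and ROR receptors. Each motif was found in 1 of the 11 windows, with no overlap between motifs. The stretches that hold them are shown 5′ to 3′ on the gene's strand, with the motif in capitals:
Arntl, chr1:176766265-176766327, plus strand: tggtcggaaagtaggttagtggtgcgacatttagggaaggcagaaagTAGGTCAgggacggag
Nr1d1, chr10:84229593-84229692, minus strand: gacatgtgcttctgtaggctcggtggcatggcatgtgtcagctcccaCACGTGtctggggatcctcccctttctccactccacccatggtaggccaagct
Per2, chr9:99497131-99497232, minus strand: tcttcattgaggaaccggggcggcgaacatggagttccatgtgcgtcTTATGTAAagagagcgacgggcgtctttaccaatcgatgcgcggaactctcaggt
The motif of Arntl begins 16 bases before the start, that of Nr1d1 191 bases before 1 of its 2 starts, and that of Per2 192 bases before the start. Among all 33469 windows of the table, 9.47% held TNGGTCA, 5.59% CACGTG and 2.04% TTANGTAA. A match describes these letters only.

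The REV-ERB genes, Dbp and Per3, the clock-driven repressors and outputs, are given first. All values that follow are log2 ratios of hypoxia over 0 h, after background correction with an offset and loess normalization, unless a sentence says otherwise.

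Nr1d1 was lower than at 0 h on all 4 saline arrays, with -0.99 at 6 h, -1.90 at 12 h, -1.13 at 24 h and -0.32 at 48 h. On the cobalt arrays it was at -0.82 at 6 h, 0.15 at 12 h, 1.28 at 24 h and 1.39 at 48 h. The lowest array of all was saline at 12 h, a 3.72-fold lower signal, and the highest was cobalt at 48 h, 2.62-fold higher. Only the cobalt 6 h value lies within the range of the saline values. The saline mean of -1.08 ± 0.35 (SE) was lower than 0 (adjusted p = 0.0321 by limma), and cobalt minus saline was 1.58 ± 0.49 (adjusted p = 0.0356). The saline call was lost without the saline 6 h (adjusted p = 0.0698), 12 h (0.134) or 24 h array (0.0850), and the difference between pretreatments was lost without any of saline 6, 12 or 24 h or cobalt 12, 24 or 48 h (adjusted p from 0.0570 to 0.0945). The software's ratios gave a saline mean of -1.72 (adjusted p = 0.0393), median centring one of -0.78 (0.0588) and scaling between arrays one of -0.92 (0.0951). The difference was 0.77 with median centring (adjusted p = 0.146), 2.28 with the software's ratios (0.0592) and 2.28 with the series matrix (0.0591), so its call was lost in each.

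Nr1d2, the paralog of Nr1d1, had a dimmer probe and smaller ratios. It stood at -0.20, -0.83, -0.42 and -0.10 on the saline arrays at 6, 12, 24 and 48 h. On the cobalt arrays in the same order it stood at -0.70, -0.27, 0.16 and -0.06. Of the 8 values, 7 are below 0, and its lowest points are saline at 12 h and cobalt at 6 h, as they are within each pretreatment for Nr1d1, Dbp and Per3. On both of those arrays the hypoxia channel was not well above background, so the ratio there is a bound: Nr1d2 was at least 1.77-fold lower at saline 12 h and at least 1.63-fold lower at cobalt 6 h. A bound of this kind sets the 0 h level against the higher of the dim probe's own level and the lowest level well above background on that array, and is open to dye bias. Over the 8 arrays its mean of -0.30 ± 0.10 was lower than 0 (adjusted p = 0.0453). That call was lost without any 1 of saline 6, 12 or 24 h or cobalt 6, 12 or 48 h (adjusted p from 0.0514 to 0.105). It was also lost with no filter (adjusted p = 0.0525), scaling between arrays (0.0658), no background subtraction (0.0659), and the software's ratios, where the mean was -1.14 (0.0860).

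Dbp, a transcription factor of the PAR bZip family whose transcript cycles with large amplitude in peripheral organs, was at 0.65 at 6 h, -0.83 at 12 h, -0.60 at 24 h and 0.68 at 48 h after saline. After cobalt it was at -2.13 at 6 h, -0.54 at 12 h, 0.18 at 24 h and -0.02 at 48 h. The cobalt 6 h value, 4.37-fold lower than at 0 h, is the lowest ratio of the 9 genes on these arrays after the offset; with the software's ratios Nr1d2, Nr1d1 and Per3 have lower ones, some of them only bounds. The saline values fall on both sides of 0, and the 2 pretreatments overlap. No comparison called Dbp: its average was -0.33 ± 0.26 (adjusted p = 0.371), its 6 h mean -0.74 ± 0.53 (adjusted p = 0.425), and its cobalt minus saline difference -0.60 ± 0.52 (adjusted p = 0.416).

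Per3, a period gene whose loss leaves the central clock running, was at 0.46, -0.65, -0.11 and 0.25 on the saline arrays at 6, 12, 24 and 48 h, with the low values at 12 and 24 h as for Dbp. On the cobalt arrays it was at -1.33, -0.53, -0.50 and -0.26. All 4 cobalt values are below 0, and the saline values lie on both sides of it. At saline 12 h its hypoxia channel was not well above background, which gives at least 1.57-fold lower. The cobalt mean of -0.65 ± 0.20 was lower than 0 (adjusted p = 0.0412), and that call was lost without saline 24 h (adjusted p = 0.0586) or cobalt 6 h (0.161), 12 h (0.100) or 24 h (0.0931), with duration as a factor, which sets the arrays of a duration together (0.0625), and with the software's ratios (mean -1.17, adjusted p = 0.186). The dimmer Per3 probe had 0.12, -0.35, -0.10 and 0.07 after saline and -0.96, -0.27, -0.30 and -0.27 after cobalt, with 3 of its hypoxia channels not well above background. Both probes had the same sign on each array.

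Arntl, the activator that REV-ERB proteins repress, ran the other way on the arrays where these genes were lowest. After saline it was at -0.52 at 6 h, 0.63 at 12 h, 0.17 at 24 h and -0.47 at 48 h. After cobalt it was at 2.15 at 6 h, 0.70 at 12 h, 0.22 at 24 h and 0.15 at 48 h. By sign, Arntl was opposite to Nr1d1 on saline 12 and 24 h and cobalt 6 h only. On saline 6 and 48 h and cobalt 12, 24 and 48 h Arntl had the same sign as Nr1d1. Its highest value, 4.43-fold above 0 h, fell on the cobalt 6 h array on which Dbp was 4.37-fold lower, and its highest saline value fell on the 12 h array on which Nr1d1 was lowest. The cobalt mean of 0.81 ± 0.30 did not pass (adjusted p = 0.0896), nor did the 6 h mean of 0.81 ± 0.42 (adjusted p = 0.273) or the saline mean of -0.05 ± 0.30 (adjusted p = 0.918). With median centring 5 of the 8 Arntl ratios changed sign, among them cobalt 12 h from 0.70 to -0.19; cobalt 6 h and saline 12 h became 1.31 and 1.28.

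Npas2, which can take the place of Clock, ranged from -0.40 to -0.03 on the saline arrays and from -0.11 to 0.58 on the cobalt arrays. Its probe is dim, and the software's ratios, which use no offset, were larger, with -0.78 at saline 6 h and 1.37 at cobalt 6 h. Its highest ratio was at cobalt 6 h, where Arntl was also highest. Clock itself was well above background only in the hypoxia channel at saline 6 h, so no ratio is given for it and no comparison with Arntl or Npas2 can be made.

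**Figure D1:**
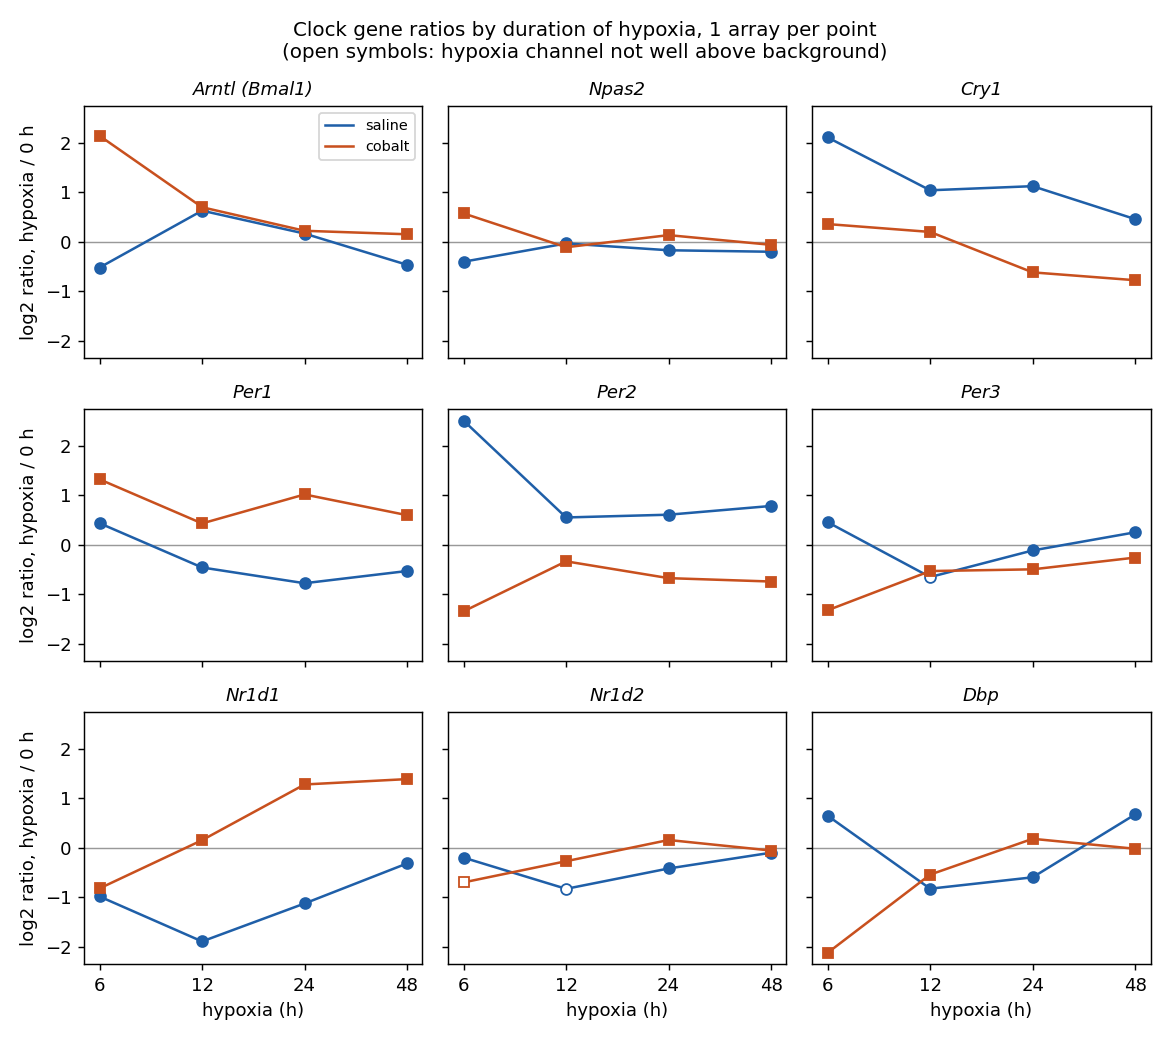
Log2 ratio of hypoxia over 0 h (vertical axis) against hours of hypoxia (horizontal axis) for the 9 clock genes tested, with 1 array per point, saline as blue circles and cobalt as orange squares; open symbols mark a hypoxia channel not well above background. Arntl peaks at 2.15 on the cobalt 6 h array where Dbp is at -2.13, and the Per2 and Cry1 lines of the 2 pretreatments do not meet.

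Set side by side, the saline 12 h array and the cobalt 6 h array show the same 5 genes displaced in the same directions: Nr1d1, Nr1d2, Dbp and Per3 lower, and Arntl higher. At saline 12 h the values were -1.90, -0.83, -0.83, -0.65 and 0.63 in that order, and at cobalt 6 h they were -0.82, -0.70, -2.13, -1.33 and 2.15. This pair was singled out after its values were seen. Of the 16 pairs of a saline with a cobalt array, it is the one in which most clock genes, 5 of 9, lay more than 0.5 from 0 in the same direction, where 5.07% of all genes did. By sign alone 6 of 9 matched, where 56.3% of all genes did. As many matched for saline 24 h with cobalt 6 h, and for saline 12 h or 24 h with cobalt 12 h. On saline 24 h the same 5 genes had the same signs, at -1.13, -0.42, -0.60, -0.11 and 0.17. The other genes did not follow: at saline 12 h and cobalt 6 h Per1 had -0.46 and 1.33, Per2 0.55 and -1.35 and Npas2 -0.03 and 0.58. Cry1 was above 0 on both with 1.04 and 0.36. The signs of the 5 genes on both arrays held under median centring, no background subtraction, scaling between arrays, the software's ratios, the series matrix and the mean over probes. The sizes did not: with the software's ratios, which use no offset, Nr1d2 was at -4.86, Nr1d1 at -3.50 and Per3 at -3.11 at saline 12 h, against -1.02 for Dbp, whose signal is brighter.

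**Figure D2:**
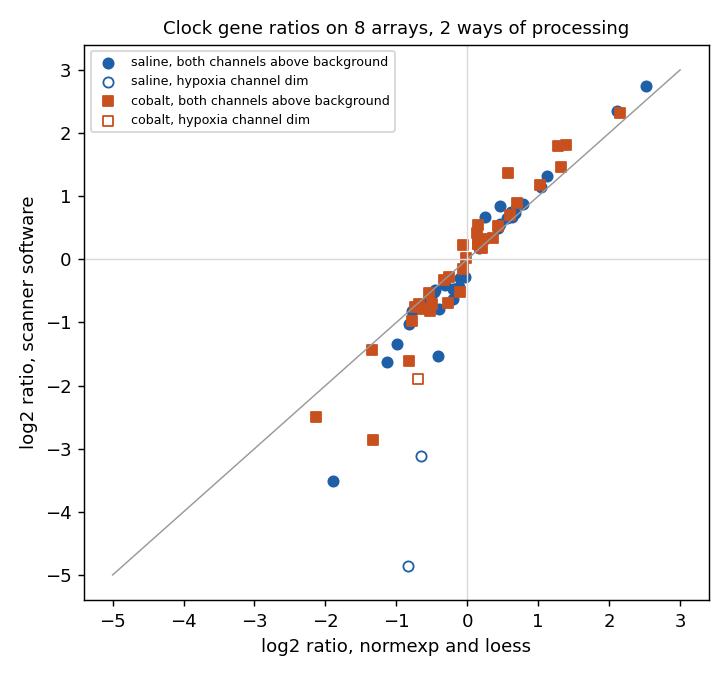
Log2 ratio from the scanner software (vertical axis) against the ratio after normexp and loess (horizontal axis) for 9 clock genes on 8 arrays, with the line of equality; open symbols mark a hypoxia channel not well above background. Most ratios of dim probes lie farther from 0 with the software at both ends, the farthest from the line being Nr1d2 at saline 12 h with -4.86 against -0.83.

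Per1, Per2 and Cry1 make up the negative limb with Per3, and with Nr1d1 they were the 4 genes called for the difference between pretreatments. Per2 was above 0 h on all saline arrays, with 2.51 at 6 h, 0.55 at 12 h, 0.61 at 24 h and 0.79 at 48 h. It was below 0 h on all cobalt arrays, with -1.35 at 6 h, -0.33 at 12 h, -0.68 at 24 h and -0.74 at 48 h. The 2 sets do not overlap, and the 6 h arrays, 5.71-fold higher after saline and 2.54-fold lower after cobalt, lie farthest apart. Read by dye, normalized Per2 was higher in Cy5 than in Cy3 on all 8 arrays. A dye bias of its probe was not tested. The saline mean of 1.12 ± 0.29 was higher than 0 (adjusted p = 0.0135), the cobalt mean of -0.78 ± 0.29 did not pass (adjusted p = 0.0878), and their difference of -1.89 ± 0.41 was called (adjusted p = 0.00808). Without the saline 6 h array the saline mean was 0.65 and still called (adjusted p = 0.0150), and with median centring the saline mean was 1.73 and the difference -3.46.

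Cry1, whose protein represses the Arntl dimers, was above 0 h on all saline arrays, with 2.12 at 6 h, 1.04 at 12 h, 1.13 at 24 h and 0.46 at 48 h. After cobalt it was at 0.36, 0.20, -0.62 and -0.78 at the same durations. The lowest saline value is above the highest cobalt value. Its ratio was highest at 6 h in both pretreatments and lowest at 48 h in both. The saline mean was 1.19 ± 0.26 (adjusted p = 0.00546), the cobalt mean -0.21 ± 0.26 (adjusted p = 0.606), and the difference -1.40 ± 0.36 (adjusted p = 0.0171), a call lost without cobalt 24 h (adjusted p = 0.0507). With median centring the saline mean was 1.82, the difference -2.90, and the signs at cobalt 6 and 12 h turned. Cry1 was then higher in Cy5 than in Cy3 on all 8 arrays, as Per2 was. A dye bias of the Cry1 probe was not tested.

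Per1, the period gene with the fastest response to acute signals, was at 0.44 at 6 h, -0.46 at 12 h, -0.78 at 24 h and -0.53 at 48 h after saline. After cobalt it was above 0 h throughout, with 1.33, 0.43, 1.02 and 0.60. The pretreatments overlap by a narrow margin, since saline 6 h at 0.4373 is above cobalt 12 h at 0.4331. The cobalt mean of 0.84 ± 0.20 was called (adjusted p = 0.0153), as was the difference of 1.18 ± 0.28 (adjusted p = 0.0112), while the saline mean of -0.33 ± 0.20 was not (adjusted p = 0.200). With median centring in place of loess the cobalt mean was -1.5e-05 and the difference -0.24 (adjusted p = 0.513), so the direction of Per1 between pretreatments depends on the correction for intensity. The cobalt call was also lost without cobalt 6 h (adjusted p = 0.0671) or 24 h (0.0696).

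At the single duration of 6 h, averaged over both pretreatments, Cry1 was higher by 1.24 ± 0.17 (adjusted p = 0.0130) and Per1 by 0.88 ± 0.17 (adjusted p = 0.0312). These were 2 of 9 clock genes called, where 7.75% of all genes were. Both calls rest on 2 arrays: that of Cry1 was lost without saline 6 h (adjusted p = 0.146) or cobalt 6 h (0.0733). That of Per1 was lost without saline 6 h (adjusted p = 0.245), saline 48 h (0.0736), cobalt 6 h (0.113) or cobalt 48 h (0.0723), and with scaling between arrays (0.117). Of 10 glucocorticoid-induced genes looked up beside Per1, 9 were tested and 7 were higher at 6 h, with a median of 1.12 over the list. Among them were Fkbp5, which tempers glucocorticoid receptor signalling as a co-chaperone, at 2.34 ± 0.38 (adjusted p = 0.0182), and Sgk1, a kinase, at 1.28 ± 0.10 (adjusted p = 0.00306). The part of these genes' change in that of Per1 was not tested.

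At 12 h no clock gene was called by limma (3 of 9 at an unadjusted p under 0.05: Cry1, Nr1d1 and Nr1d2), where 3.83% of all genes were called and 26.1% had such an unadjusted p. The lowest adjusted p was that of Cry1 at 0.62 ± 0.17 (0.0896). At 24 h and at 48 h none was called and none had an unadjusted p under 0.05, where 1.37% and 1.51% of all genes were called and 17.9% and 20.9% had such an unadjusted p. All 9 clock genes had 24 h means between -0.31 and 0.25. For Nr1d1, Per1, Cry1 and Per2 these means average arrays on opposite sides of 0: at 24 h saline and cobalt stood at -1.13 and 1.28, -0.78 and 1.02, 1.13 and -0.62, and 0.61 and -0.68. Of 9 genes that follow body temperature and heat stress, looked up because the clock responds to temperature, 8 were tested and 3 were higher at 12 h: the chaperones Hspa1a at 3.41 ± 0.52, Hspb1 at 1.07 ± 0.16 and Dnajb1 at 1.05 ± 0.17. Hspa1a was highest at saline 12 h with 5.32, the array on which Nr1d1 and Nr1d2 were lowest; its part in the clock gene ratios was not tested.

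The counts of calls were read against the share of all genes called in each comparison. In the average over all arrays 1 of 9 was called, Nr1d2, against 31.9% of all genes. In the saline mean 3 were called, Per2 and Cry1 higher and Nr1d1 lower, against 40.1%, and in the cobalt mean 2, Per1 higher and Per3 lower, against 20.8%. In cobalt minus saline 4 were called, Per1 and Nr1d1 higher and Per2 and Cry1 lower, against 30.1%. None of these counts is a result about the clock genes as a group.

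**Figure D3:**
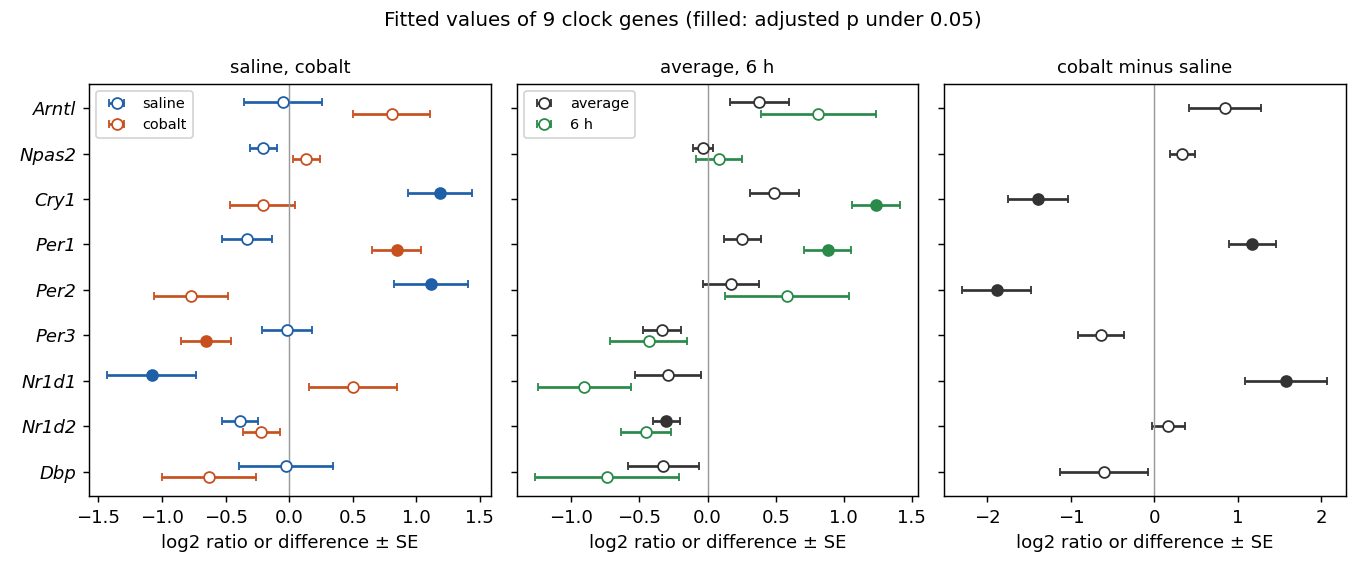
Fitted log2 ratio or difference ± SE (horizontal axes) for 9 clock genes (rows) in the saline and cobalt means (left), the average and the 6 h mean (middle) and cobalt minus saline (right); filled points have an adjusted p under 0.05. Per2 and Cry1 have saline means of 1.12 and 1.19 and differences of -1.89 and -1.40, and most points of Dbp, Arntl and Npas2 lie within 2 SE of 0.

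Differences between durations were tested apart from the mean of each pretreatment, which removes any dye effect that is constant over a slide. No clock gene was called for any difference among the 4 durations (2 of 9 at an unadjusted p under 0.05: Cry1 and Per1), where 0.00828% of all genes were called and 8.17% had such an unadjusted p. None was called for 12 h minus the mean of 24 and 48 h (2 of 9 at an unadjusted p under 0.05), where 0.00828% of all genes were called and 7.11% had such an unadjusted p. For Nr1d1 that contrast was -1.18 ± 0.42 (adjusted p = 0.692). None was called for 24 and 48 h minus 6 and 12 h (3 of 9 at an unadjusted p under 0.05), where 0% of all genes were called and 12.9% had such an unadjusted p. In that contrast Nr1d1 was at 1.20 ± 0.30 (adjusted p = 0.306) and Cry1 at -0.88 ± 0.25 (adjusted p = 0.312). None was called, and none had an unadjusted p under 0.05, for the difference of that contrast between pretreatments, where 0% of all genes were called and 5.43% had such an unadjusted p. With 1 array per duration and pretreatment these fits leave 3 or 4 residual degrees of freedom.

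As a description of the spread between durations, the SD over the 4 saline arrays had a median of 0.55 over the 9 genes against 0.18 over all genes, and 8 of the 9 lay above 0.18, all but Npas2 at 0.15. Over the 4 cobalt arrays the median SD was 0.46 against 0.14, and all 9 lay above 0.14. The 0 h RNA was measured 4 times per pretreatment. Its spread is technical only if the shared control label means the same RNA. The median SD of its level was 0.11 in saline and 0.12 in cobalt for the clock genes, and 0.11 and 0.09 for all genes. That SD is of single-channel levels normalized between arrays, so it is not the technical SD of a ratio. On the cobalt 6 h array 5 of 9 clock genes lay more than 1 from 0 on the log2 scale, where 2.91% of all genes did. On saline 6, 12 and 24 h and cobalt 24 h 2 did (5.01%, 6.89%, 2.84% and 2.36% of all genes), on cobalt 48 h 1 (1.8%), and on saline 48 h and cobalt 12 h none (3.68% and 1.95%).

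Each ratio of a pretreatment holds the same 0 h RNA by its label, so levels of the single channels were also read. They were read within 1 dye at a time, since saline hypoxia RNA and cobalt 0 h RNA were both in Cy5 and the other samples in Cy3. Levels are log2 values normalized between arrays, and levels of different genes are not compared. They come from different slides, and the slide cannot be told apart from the sample.

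In Cy5, the cobalt 0 h RNA held the lowest level of Arntl and the highest levels of Dbp, Per3 and Nr1d2, the last by no more than the SD of the 0 h level. For Arntl it was 8.78 ± 0.05 (SD, n = 4 arrays of the same RNA by its label), against 9.30, 10.76, 10.38 and 9.90 for saline at 6, 12, 24 and 48 h. For Dbp it was 10.75 ± 0.18 against 9.79, 8.37, 8.62 and 9.66, and for Per3 8.30 ± 0.12 against 7.43, 6.24, 6.88 and 7.12. The Per3 level at saline 12 h was not well above background. The saline hypoxia levels nearest to the cobalt 0 h levels were those of 6 and 48 h for Arntl, Dbp and Per3. Per2 at cobalt 0 h was 10.85 ± 0.15, below saline 6 h at 11.49 and above saline 12, 24 and 48 h at 9.53, 9.63 and 10.06.

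In Cy3, Arntl was highest in cobalt 6 h at 10.86, then in saline 0 h at 10.13 ± 0.23, and lower in cobalt 12, 24 and 48 h at 9.49, 9.04 and 8.95. Dbp had the reverse order at its low end, with 8.37 in cobalt 6 h and 9.14 ± 0.11 in saline 0 h below 10.36, 10.98 and 10.80 in cobalt 12, 24 and 48 h. Per3 was at 6.80 in cobalt 6 h and 6.93 ± 0.06 in saline 0 h, below 7.88, 7.81 and 8.10. So in this dye the cobalt 6 h and saline 0 h samples were the 2 with the most Arntl and the least Dbp and Per3, but not the 2 with the least REV-ERB transcript. Nr1d1 was at 6.84 in cobalt 6 h, 7.81 in cobalt 12 h, 8.46 ± 0.09 in saline 0 h, 8.92 in cobalt 24 h and 8.98 in cobalt 48 h. Nr1d2 was lowest in cobalt 6 h at 6.41, where it was not well above background. It was second highest in saline 0 h at 6.90 ± 0.09, within the SD of the 0 h level of cobalt 12 h at 6.85. Per2 was lowest in saline 0 h at 9.06 ± 0.14, below 9.66 in cobalt 6 h and 10.33, 10.25 and 10.04 in cobalt 12, 24 and 48 h. Its 0 h level was thus low in the saline reference of the Cy3 channel, and high in the cobalt reference of the Cy5 channel, relative to the hypoxia samples in the same dye, which are samples of the other pretreatment. For Cry1, saline 0 h at 9.09 ± 0.14 lay between cobalt 24 h at 9.17 and cobalt 48 h at 8.98, and cobalt 0 h at 9.77 ± 0.15 lay next to saline 48 h at 9.75; neither pair differed by more than the SD of the 0 h level. Over all 9 genes, 13 of 36 neighbours in the order of levels in Cy3 and 9 of 36 in Cy5 differed by no more than that SD.

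**Figure D4:**
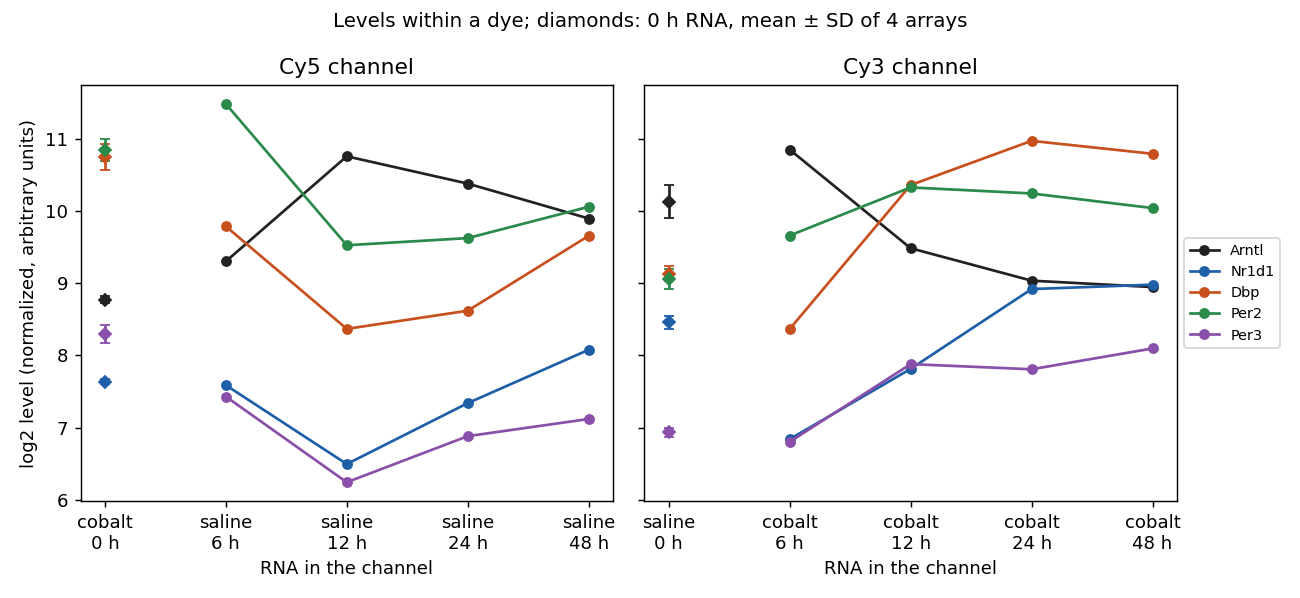
Log2 single-channel level, normalized, in arbitrary units (vertical axis) for 5 clock genes by RNA sample (horizontal axis), Cy5 on the left and Cy3 on the right; diamonds are the 0 h RNA as mean ± SD of 4 arrays and circles are single arrays. In Cy5, Arntl is lowest (8.78) and Dbp highest (10.75) at cobalt 0 h; in Cy3, Arntl is highest (10.86) and Dbp lowest (8.37) at cobalt 6 h. The Per3 level at saline 12 h was not well above background. Levels of different genes, or in different dyes, are not comparable.

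Other parts of the clock were read from a list of 28 regulators and outputs, of which 21 were tested, 3 more were on the array and did not pass the filter, and 4 were not found on it. In the average 5 of 21 were called. Among them, Nfil3, the repressor that competes with Dbp at D-boxes, at 0.47 ± 0.14 and Bhlhe40 (DEC1), an E-box repressor, at 0.37 ± 0.08 were higher, and Timeless, a replication fork protein, at -0.50 ± 0.08 and Nono, an RNA-binding partner of PER, at -0.22 ± 0.05 were lower. At 6 h 2 of 21 were called, Nfil3 at 1.09 ± 0.13 (adjusted p = 0.00833) and Timeless at -0.64 ± 0.14 (adjusted p = 0.0456). Nfil3 was highest on the cobalt 6 h array at 1.36, where Dbp was lowest, and stood at 0.82 at saline 6 h. Tef, a PAR bZip factor like Dbp that was named after its values were seen, was at -1.05 at cobalt 6 h and -0.55 at saline 12 h, its lowest arrays, and at 0.50 at saline 6 h. In cobalt minus saline 8 of 21 were called, 3 higher and 5 lower. The higher ones were the casein kinases that phosphorylate PER, Csnk1d at 0.80 ± 0.17 and Csnk1e at 0.70 ± 0.10, and Fbxw11, a ubiquitin ligase subunit, at 0.57 ± 0.15; the lower ones were Wee1 at -0.98, Usp2 at -0.71, Tipin at -0.70, Prkaa1 at -0.51 and Rora at -0.22. Read by dye, Csnk1d and Csnk1e were higher in Cy3 than in Cy5 on all 8 arrays, and Usp2 was higher in Cy5 on all 8. A dye bias of these probes was not tested, and pretreatment and dye cannot be told apart here. The medians of the list were -0.06 in the average and -0.17 in cobalt minus saline. Its called shares stand beside backgrounds of 31.9%, 7.75% and 30.1%.

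The named genes whose 8 ratios were most like those of Arntl, by Pearson correlation over the 8 arrays and among 12061 named genes, were Svs3b (0.977), Gnat1 (0.973) and Rnaseh1 (0.961). Those most like Dbp were Ap5m1 (0.968), Tst (0.961) and Ano1 (0.957). All 8 points of each correlation share their 0 h RNA within a pretreatment, by its label. The like genes had smaller ratios: at cobalt 6 h Rnaseh1, a ribonuclease, was at 0.39 against 2.15 for Arntl, and Tst, a mitochondrial sulfurtransferase, at -0.42 against -2.13 for Dbp.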

How the data were processed

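Per the file headers, the authors read two-colour arrays with Feature Extraction 9.5.1.1, whose deposited files hold mean signals as intensity and a log10 ratio of red over green. The deposited series matrix holds log2 ratios, with the direction read from its correlation with the software ratio. Clock genes and lists were chosen with earlier results of these data known. Here signals went through normexp (offset 50) and loess in limma 3.58.1 (R 4.3.3, package data.table in version 1.17.8), and cobalt arrays were turned for the dye swap. A probe was kept if 4 or more of 8 arrays had it well above background in a channel, and the brightest probe stood for a gene. Symbols came from the GRCr8 gene list where a probe matched it. Of 41012 probes, 20970 did not and kept the array's own name, so the genes counted include such names. Outlier spots were dropped; no clock gene spot was one, and none was saturated. Fits used a variance trend over mean intensity and took the mean of each pretreatment, additive durations, or early and late cells; a Benjamini-Hochberg adjusted p under 0.05 over 24161 genes was called. In the average, the pretreatment means and their difference, arrays of different durations served as replicates, so differences between durations enter the spread. No label says that RNAs came from separate animals. The p-values leave out the spread of 0 h animals, and may reflect differences between durations and technical spread rather than spread between animals. The number of arrays limits the precision. Named were all 10 clock genes, the called or 3 lowest-p genes of the lists where the text turns on a comparison, and the 3 genes most like Arntl and Dbp; 2 genes that this rule or the marker list selects are not reported here. Alternatives were the software ratio, no background subtraction, the series matrix, median centring, scaling between arrays, a strict filter or none, probe means, outlier spots, the duration factor and omission of single arrays.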

Additional observations from a re-analysis of the deposited data

Results flagged for a closer look

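The ratios of 4 clock genes differed between the pretreatments by the test of the difference itself (limma, cobalt minus saline). Per2 differed by -1.89, with all 4 saline arrays above 0 and all 4 cobalt arrays below. Cry1 differed by -1.40, Nr1d1 by 1.58 and Per1 by 1.18. Pretreatment, dye orientation, slide and scan cannot be told apart in these differences, and with median centring Per1 lost its direction and Nr1d1 its call (0.77, adjusted p = 0.146). The call of Nr1d1 was lost in 9 of 18 alternatives.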

How the results depend on the processing

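The saline means of Cry1 and Per2 and the cobalt minus saline difference of Per2 kept their direction and their call in all 18 alternatives. The ranges were 0.88 to 1.82, 0.65 to 1.73 and -3.46 to -1.43. Not all alternatives could move these estimates. They stayed at 1.19, 1.12 and -1.89 with the strict filter or none, probe means, outlier spots kept and the duration factor. Omitting a cobalt array left the saline means unchanged. In these settings only the p-value could change. The series matrix holds the software ratios, rounded, so it is not a separate check. Every alternative kept the dye of each sample, so none of them bears on a dye bias. The average call of Nr1d2 was lost in 11 of 17. Without loess, by median centring, Per1 turned to -1.5e-05 in cobalt and -0.24 in cobalt minus saline. Of 72 ratios of single arrays 56 kept their sign with median centring, including 35 of the 39 beyond 0.5, and 70 with the software ratio. The count called in the average, 1 of 9, was 0 with the software ratio, no background subtraction, the series matrix or no filter (of 10 genes), 0 of 7 with the strict filter, which removed Nr1d2 and Per3, and 2 with median centring or duration as a factor. The count in cobalt, 2, was 4 with median centring or scaling between arrays and 1 with the software ratio, the series matrix, the strict filter (of 7) or duration as a factor. At 6 h the count of 2 was 1 with scaling between arrays, and at 12 h the count of 0 was 2 with median centring. Leaving out single arrays gave 0 to 2 in the average, 2 to 4 in saline, 0 to 3 in cobalt, 2 to 4 in cobalt minus saline, 1 to 2 at 6 h and 0 to 1 at 12 h. Where leaving out an array ended a call, fewer arrays entered the fit; the cause of the other changes was not tested. Slide as a block could not be fitted, since each pretreatment lies on its own slide. Replicate numbers pair nothing here, since each group holds 1 array; the paired fit that was run is duration as a factor, with 3 residual degrees of freedom. Signal over background limits Clock, and the sizes for Nr1d1, Nr1d2, Npas2 and Per3.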
